A study of Bos taurus with 72 samples.

Results

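In blood of beef cattle, 94 genes were higher at the stage called pulled than both before and after it. They were chosen by the mean paired difference in log2 CPM (counts scaled to library size), of at least 0.75 for pulled minus entry and at least 0.75 for pulled minus close-out, which is a 1.68-fold difference. A mean log2 CPM of at least 1 over 66 libraries was also required. The 94 genes, called members here, are 0.743% of the 12655 genes that passed the low-count filter, out of 24616 in the table, and all 94 passed that filter. Because both differences with pulled chose them, those differences are given as a description with no test. The test given is of close-out against entry. The choice set no threshold on that comparison, but it equals the gap between the same differences and shares their libraries. It is therefore not free of the choice.

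The series sampled whole blood of 24 male beef cattle, each at the entry, pulled and close-out stages, for a study of bovine respiratory disease, and sequenced poly-A RNA in 72 libraries. Animals were kept where RNA integrity passed 7.5 at every stage, which held for 24 of 49. The labels give no genotype, treatment, breed or age, and stage is the only difference they record between groups. A diagnosis per animal, the days between samplings and healthy animals at matched times are not analysed here, so age and time on feed cannot be told apart from stage. Genes are known by identifier only, since 0 of the 24616 identifiers matched the gene table at hand, so functions of members and the share of blood cell types were not tested.

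Bovine respiratory disease is a complex of viral and bacterial infections of the airways that is most common soon after cattle arrive at a feedlot. In feedlot practice, pulled cattle are those taken out of their pen, usually for signs of illness, and close-out is the end of feeding. Messenger RNA in whole blood comes mainly from white blood cells, with a part from reticulocytes and platelets. It therefore reflects both how many cells of each type circulate and how active a gene is in them, and fewer cells of a type cannot be told apart from less RNA per cell.

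Library totals, in units of 1000000 counts, ran from 8.24 to 29.1 over the 66 libraries, with a median of 17.3. The stages had similar means, of 17.9 (SD 4.49) for entry, 17.0 (SD 4.05) for pulled and 17.1 (SD 4.39) for close-out (n = 22). The choice left out animals 9 and 12, whose pulled libraries did not match their own animal. Over 100 genes picked for stable differences between animals, libraries of 1 animal correlated at 0.782 or more among the 70 other libraries. Those of different animals correlated at 0.602 or less. Picking genes that way favours such a gap, so the gap is given as a description. For animal 9, the library labelled pulled reached 0.962 with animal 11 at entry, against -0.0362 with animal 9 at entry. For animal 12 the corresponding library reached 0.133 with its own entry library and no more than 0.350 with any other animal. Entry libraries also fell into sets by the number in their titles, seen in earlier work on these data, so values are given for the 16 animals with numbers up to 98 and the 6 with higher numbers. The labels record no batch, and technical and animal differences between the sets cannot be told apart.

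The 94 members had median differences of 1.05 for pulled minus entry (0.756 to 2.58) and 1.33 for pulled minus close-out (0.763 to 4.16), which are 2.06-fold and 2.52-fold. The difference from close-out was the larger of the 2 in 64 of the 94. Over all 12655 genes both medians lay near 0, at -0.026 and -0.001. Next to the threshold, the 3 members just inside it had a smaller difference of 0.756, 0.759 and 0.759, and the 3 genes just outside had 0.746, 0.742 and 0.740. With library totals in place of TMM scaling (trimmed mean of M values), the medians of all genes moved to -0.169 and -0.136. All 94 members kept positive differences under that scaling, with medians of 0.899 and 1.20.

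**Figure D1:**
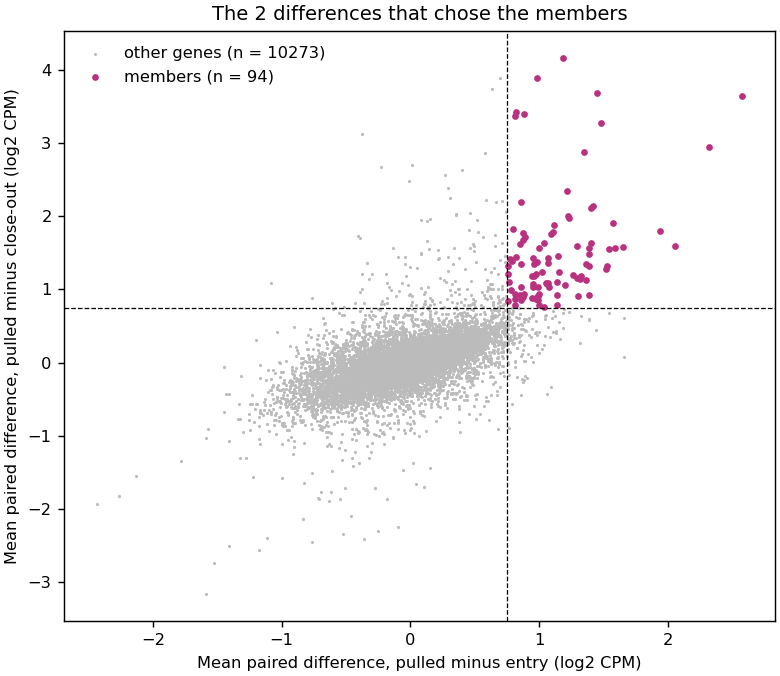
Mean paired difference of each gene that passed the minimum mean level of 1 log2 CPM, pulled minus entry on the x axis and pulled minus close-out on the y axis, both in log2 CPM over 22 animals. The 94 members (magenta) fill the upper right beyond the dashed lines at 0.75, and 10 of them lie at 2.5 or more on the y axis.

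ENSBTAG00000046158 had the largest of the smaller differences and led the members. Mean log2 CPM went from 3.27 ± 1.43 in entry libraries to 5.85 ± 1.72 in pulled and 2.21 ± 0.52 in close-out libraries (SD, n = 22). At entry it ran from 2.00 to 7.81 with a median of 2.87, at pulled from 2.34 to 9.28 with a median of 5.68, and at close-out from 1.43 to 3.61 with a median of 2.16. Pulled exceeded entry in 18 of 22 animals and close-out in 22, by means of 5.97-fold and 12.4-fold. Of the 22 pulled libraries, 21 lay above the highest close-out library but only 3 above the highest entry library, which was that of animal 5. The highest pulled values belonged to animal 2 and the lowest to animal 17. Within the 16 animals the difference from entry was 2.34, and within the 6 it was 3.22.

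ENSBTAG00000022715 was second in that order. Its SD between animals was above that of the first gene at entry and close-out and below it at pulled. Entry libraries had 2.83 ± 2.07 log2 CPM, pulled libraries 5.15 ± 1.64 and close-out libraries 2.21 ± 1.05 (SD, n = 22). Entry values ran from 0.08 to 7.91 (median 2.27), pulled values from 1.61 to 8.37 (median 5.23) and close-out values from 0.58 to 5.82 (median 2.08). Pulled was above entry in 18 of 22 animals and above close-out in 19, and above both in 15. The stages overlapped more than for the first gene, with 7 pulled libraries above the highest close-out library and 1 above the highest entry library. Animal 10 held the highest close-out value and animal 4 the lowest pulled value. The difference from entry was 2.52 within the 16 animals and 1.78 within the 6.

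In the animals left out of the choice, the first gene stood at 1.91, 5.34 and 1.96 log2 CPM over the 3 stages of animal 9, and at 0.99, 8.24 and 1.64 in animal 12. The second gene stood at 2.77, 6.35 and 1.23 in animal 9, and at 3.24, 6.38 and 3.15 in animal 12. Both genes were thus highest in the library labelled pulled of each of these animals, although neither library matches the animal named on it.

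**Figure D2:**
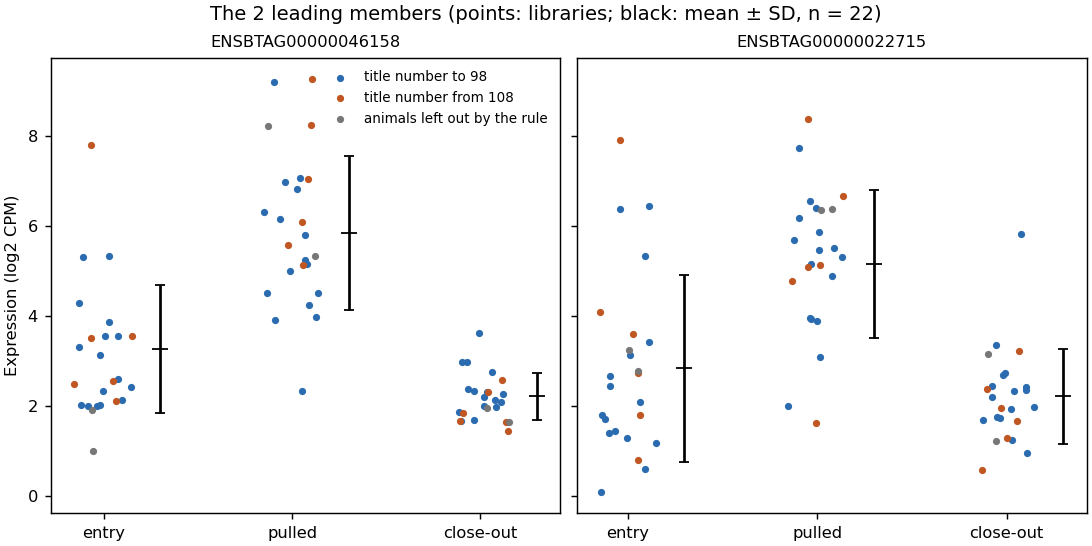
Level of ENSBTAG00000046158 (left) and ENSBTAG00000022715 (right) in log2 CPM in each library by stage, with the mean and SD over 22 animals in black. Means are 3.27 and 2.83 at entry, 5.85 and 5.15 at pulled, and 2.21 for both genes at close-out. For both genes most entry libraries lie within the pulled range, in its lower part for the most part.

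The members were not higher at pulled in every animal. Averaged over the 94 members, entry stood at 4.54 ± 0.79 log2 CPM, pulled at 5.67 ± 0.69 and close-out at 4.13 ± 0.37 (SD, n = 22). Pulled minus entry ran from -0.71 to 2.96 with a median of 1.25, and was above 0 in 18 of 22 animals. Pulled minus close-out ran from 0.16 to 2.87 with a median of 1.52, and was above 0 in all 22. These signs follow in part from the choice of the members and support nothing about it.

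The 4 animals in which the average was lower at pulled than at entry were animals 5, 11, 16 and 17. Animal 5 went from 7.02 at entry, the highest entry value, to 6.31 at pulled and 3.69 at close-out. Animal 11 went from 5.49 to 4.84 and 3.74, and animal 16 from 5.51 to 5.30 and 4.09. Those 3 animals had the highest entry values of the 22, and all 3 were far lower by close-out. Animal 17 was below the median of the 22 at each stage, at 4.26, 4.08 and 3.92. Those medians were 4.48, 5.76 and 4.08, and only its pulled value was the lowest of the 22. Animal 1 was nearly level between entry and pulled, at 5.08 and 5.15, before 3.79 at close-out. Animals 19, 21 and 8 had the largest differences from entry, at 2.96, 2.42 and 2.40.

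Counts of members per animal gave the same picture. Pulled exceeded entry in 36 to 94 of the 94 members, with a median of 80.5, and in at least 90 members in 7 animals. It exceeded close-out in 51 to 94 members, with a median of 89, and in at least 80 members in 19 animals. The 3 animals below 80 were animal 17 with 51 members, animal 10 with 52 and animal 4 with 56. Animal 10 held the highest close-out average, at 5.24, against 4.57 for the next animal. Animal 15 was above both other stages in all 94 members and animal 17 in 28.

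Of all counts, the members took 1.63% ± 1.25 in entry libraries, 2.83% ± 1.34 in pulled and 0.789% ± 0.288 in close-out libraries (SD, n = 22). The lowest and highest libraries were at 0.570% and 6.64% at entry, at 0.75% and 6.30% at pulled and at 0.489% and 1.90% at close-out. The members with the 2 largest shares at pulled held 0.418% and 0.404% of the counts, so the other 92 held most of the total. In every library of the series the 95% Wilson interval of this share was at most 0.0234 percentage points wide, which covers counting error only. The pulled share was above entry in 18 of 22 animals and above close-out in 22.

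**Figure D3:**
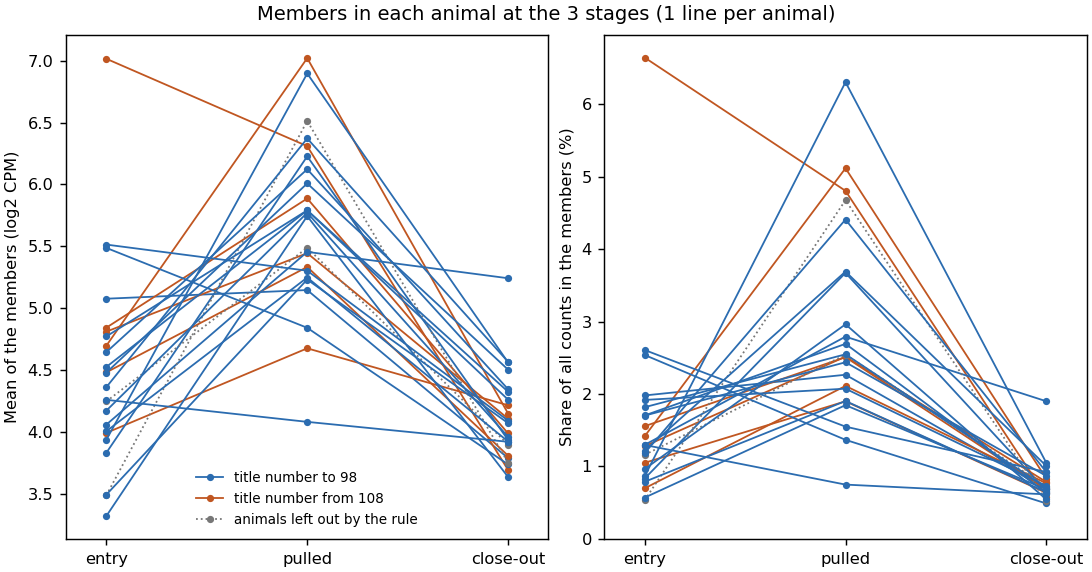
Average of the 94 members in log2 CPM (left) and their share of all counts in percent (right) in each animal, 1 line per animal, with the 2 animals left out by the rule dotted. Lines lie closest together at close-out, between 3.64 and 5.24 on the left, and the entry library at the top left belongs to animal 5.

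Single members differed in how many animals were higher at pulled. The number of animals with pulled above entry ran from 13 to 22 with a median of 17, and 14 members reached 20 animals or more. Above close-out the number ran from 15 to 22 with a median of 20, and 50 members reached 20 or more. Pulled was above entry in all 22 animals for 2 members, those at ranks 3 and 26 when ordered by the smaller of the 2 differences. They exceeded entry by 1.94 ± 1.17 and 1.33 ± 0.68 (SD, n = 22), and both were above both other stages in 21 animals. None of the 94 was above both other stages in all 22 animals.

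The spread of pulled minus entry between animals also varied among members, from an SD of 0.35 to 3.74 with a median of 1.41. The member with the smallest spread, at rank 71, differed by 0.86 ± 0.35 and was higher than entry in 21 of 22 animals. The member with the largest spread, at rank 20, differed by 1.29 ± 3.74 and was higher in only 14. Its values in single animals ran from -7.33 to 6.35.

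Levels of the members between animals were wide at entry and pulled and narrower at close-out. The median SD over 22 animals was 1.04 for entry, 1.05 for pulled and 0.69 for close-out, against 0.55, 0.46 and 0.43 over all 12655 genes. The close-out SD was below the entry SD in 86 of 94 members (91.5%), and below the pulled SD in 82 (87.2%). Over all genes these shares were 80.2% and 62.5%. The choice of large differences favours genes with a wide spread, so these values were not tested.

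Members varied together between animals at the same stage. The median Pearson correlation over the 4371 pairs of members, each across 22 animals, was 0.50 for entry, 0.47 for pulled and 0.24 for close-out. For all genes that passed the same minimum level, the median was 0.002, -0.003 and -0.003. Values within a stage share libraries, scaling and blood cell make-up. The members were also chosen for the same direction of difference in these libraries, which favours positive correlations, while all genes include both directions. These correlations were therefore not tested. With ENSBTAG00000046158 at pulled, 41 of the 93 other members correlated at 0.7 or more and 9 were negative, from -0.48 to 0.94. At entry 54 reached 0.7, and at close-out 3. ENSBTAG00000046158 and ENSBTAG00000022715 correlated at 0.86 in entry libraries, 0.68 in pulled and 0.59 in close-out libraries.

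The order of animals at 1 stage was weakly related to that at another. Across the 22 animals the median correlation of a member with itself was 0.05 between entry and pulled, 0.23 between pulled and close-out and 0.04 between entry and close-out. Over all genes these medians were -0.05, 0.16 and 0.10. Single members ranged widely, from -0.59 to 0.80 between entry and pulled. For ENSBTAG00000046158 the values were 0.09, -0.17 and -0.11.

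**Figure D4:**
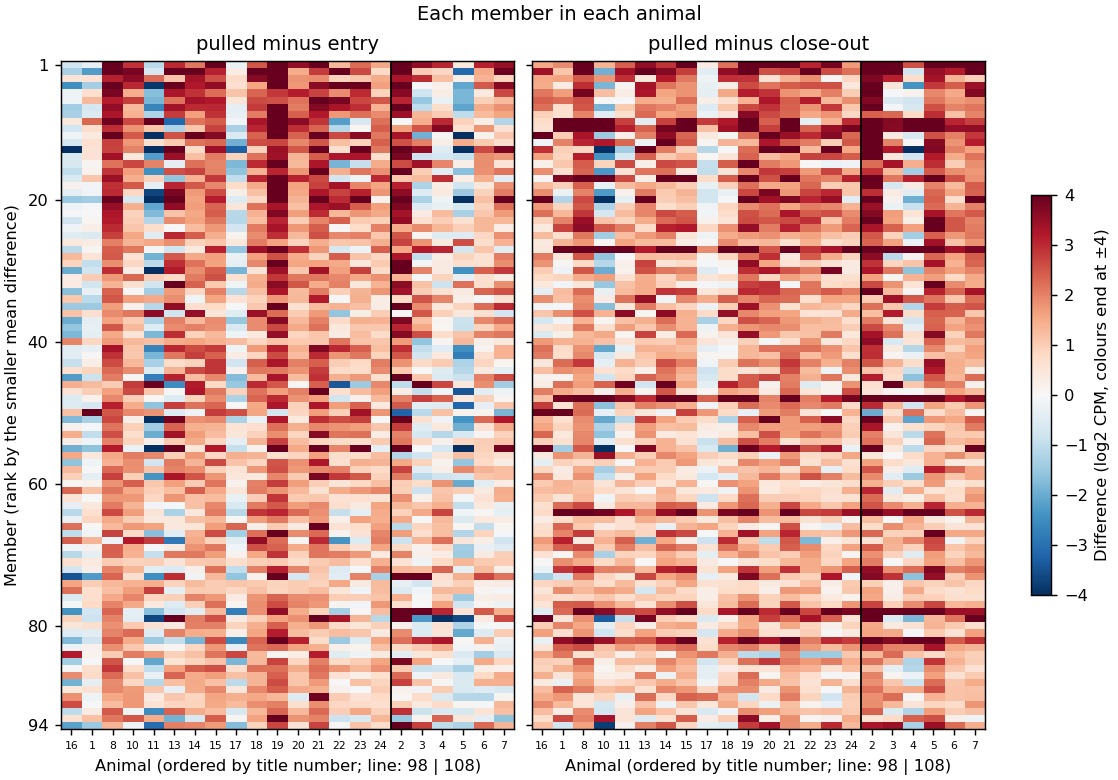
Pulled minus entry (left) and pulled minus close-out (right) in log2 CPM for each of the 94 members (rows, by rank) in each of 22 animals (columns, by title number, with the 6 higher numbers to the right of the line). Red is higher at pulled. Animals 5, 11, 16 and 17 carry much blue on the left, and animals 4, 10 and 17 on the right.

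Whether members were back at their entry level by close-out was asked in the comparison of those stages, where 22 of 94 members (23.4%) were lower at close-out and 0 were higher (edgeR quasi-likelihood test, animal as a block, adjusted p under 0.05). Over all 12655 genes 10.4% were lower and 9.87% higher. Unlike all genes, the members were chosen from differences that bear on this comparison, so the shares are set side by side as a description. The result of 0 higher members stands beside 2 at an unadjusted p under 0.05, where 1953 of all 12655 genes were higher. DESeq2 called 1 member higher among 1412 genes called higher, and limma-voom 0 among 1370. The median log2 fold change of the 94 was -0.23, against -0.03 for all genes, and 69 of 94 were negative (73.4%, against 53.3% of all genes). The 22 lower members fell by 0.69 to 3.08 on the log2 scale, and each was lower in 15 to 22 of the 22 animals (median 19). With all 24 animals 21 members were lower and 0 higher, where 1517 of all genes were lower and 1295 higher.

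A missed threshold in the other 72 members does not show a return to the entry level. For 54 of them the log2 fold change plus or minus 2 SE stayed within 1 log2 unit of 0, and for 18 it reached beyond. The median SE of the 94 was 0.27. ENSBTAG00000046158 was lower at close-out in 18 of 22 animals, with a change of -1.13 ± 0.41 (log2, SE) and an adjusted p of 0.0444 by edgeR. That call was lost in 12 of the 22 fits that leave out 1 animal (adjusted p up to 0.0882, without animal 11), and with all 24 animals (adjusted p = 0.0528). ENSBTAG00000022715 was not past the threshold at -0.96 (SE 0.60, edgeR adjusted p = 0.239), lower in 10 animals.

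By the edgeR fold change, the largest falls below entry belonged to ENSBTAG00000014707 and ENSBTAG00000030921, picked after their values were seen. By the mean paired difference in log2 CPM, the member at rank 48 came second, at -2.91, and ENSBTAG00000030921 followed at -2.61. ENSBTAG00000014707, at rank 27, had 10.5 ± 1.36 log2 CPM in entry, 11.7 ± 1.25 in pulled and 7.50 ± 1.01 in close-out libraries (SD, n = 22). Its values ran from 8.05 to 14.1 at entry (median 10.5), from 8.79 to 13.6 at pulled (median 11.8) and from 5.93 to 10.3 at close-out (median 7.32). Close-out lay below the lowest entry library in 17 of 22 animals, while pulled and entry overlapped throughout. In 21 of 22 animals it was below entry, and the edgeR change was -3.08 ± 0.36 (log2, SE; adjusted p = 3.12e-08).

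ENSBTAG00000030921, at rank 78, had 3.86 ± 1.33 log2 CPM in entry, 4.69 ± 1.16 in pulled and 1.26 ± 0.76 in close-out libraries (SD, n = 22). It ran from 1.35 to 5.87 at entry (median 4.29), from 1.69 to 6.70 at pulled (median 4.54) and from 0.28 to 3.54 at close-out (median 1.18). Entry and pulled overlapped, with 14 of 22 animals higher at pulled, and 15 close-out libraries lay below the lowest entry library. All 22 animals were below entry, and the edgeR change was -2.90 ± 0.34 (log2, SE; adjusted p = 3.60e-08).

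For ENSBTAG00000014707 pulled exceeded entry by 1.18 ± 1.72 and close-out by 4.16 ± 1.45, and for ENSBTAG00000030921 by 0.82 ± 2.02 and 3.43 ± 1.34 (log2 CPM, SD, n = 22). Both genes thus lay much nearer to entry than to close-out at the pulled stage. In 10 members pulled exceeded close-out by 2.5 or more, with at least 19 of 22 animals higher at pulled. These differences with pulled were used in the choice and were not tested.

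Both sets of animals contributed to the members, unequally. Within the 16 animals with title numbers up to 98, pulled minus entry had a median of 1.22 over the 94 members and was above 0 in all of them. Within the 6 animals with higher numbers the median was 0.74, with 81 members above 0 and 13 below, down to -0.81. Pulled minus close-out had medians of 1.27 and 1.56, above 0 for all 94 in both sets. Both differences reached 0.75 in 82 members within the 16, in 46 within the 6 and in 37 within each. These differences chose the members and were not tested.

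Close-out against entry also differed between the sets. Within the 16 animals 21 members (22.3%) were lower and 10 (10.6%) higher at close-out (edgeR, adjusted p under 0.05), where 34.5% and 31.5% of all genes were called. Within the 6 animals 28 (29.8%) were lower and 0 higher, where 17.6% and 22.0% of all genes were. At an unadjusted p under 0.05 the 6 animals gave 36 members lower and 0 higher. The share of all genes at that threshold is not given here, so these counts cannot be judged against it. No other tool was run within the sets. Members lower in both sets numbered 15 (16.0%, against 0.838% of all genes), and 4 were higher within the 16 and lower within the 6 (4.26%, against 12.2% of all genes). The test of the difference between the sets called 26 of 94 members (27.7%), below the 66.1% of all genes. In 25 of these 26 (96.2%, against 46.6% of all genes called) the change was more negative in the 6 animals. With library totals in place of TMM 10 members were called. The member average of close-out minus entry was -3.32 in animal 5, and -0.86 to 0.22 in the rest of the 6 (log2 CPM). The test of the difference was not repeated without animal 5. The sets were chosen from these entry libraries, so that test describes them and is not independent evidence.

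Of the 22 members lower over all animals, 19 (86.4%) were also called lower within the 16 and 17 (77.3%) within the 6. Of all genes lower over all animals, these shares were 93.5% and 13.1%. The fits within the sets share their libraries with the fit over all animals, so the shares are a description. ENSBTAG00000014707 fell by 2.93 on the log2 scale within the 16 animals and by 3.54 within the 6 (edgeR adjusted p = 2.02e-06 and 0.00259). ENSBTAG00000030921 fell by 3.18 and 1.74 (edgeR adjusted p = 2.37e-07 and 0.0145). ENSBTAG00000046158 had log2 fold changes of -1.02 within the 16 and -1.62 within the 6, and in the 6 it was not past the threshold (edgeR adjusted p = 0.0467 and 0.113). The entry level was higher in the 6 animals than in the 16 for 76 of the 94 members, and animal 5 alone stood at 7.02 on average where the other 5 ran from 3.99 to 4.84. The same count over all genes is not given here. Entry values were used both to see the sets and to choose the members, so the 76 is a description.

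**Figure D5:**
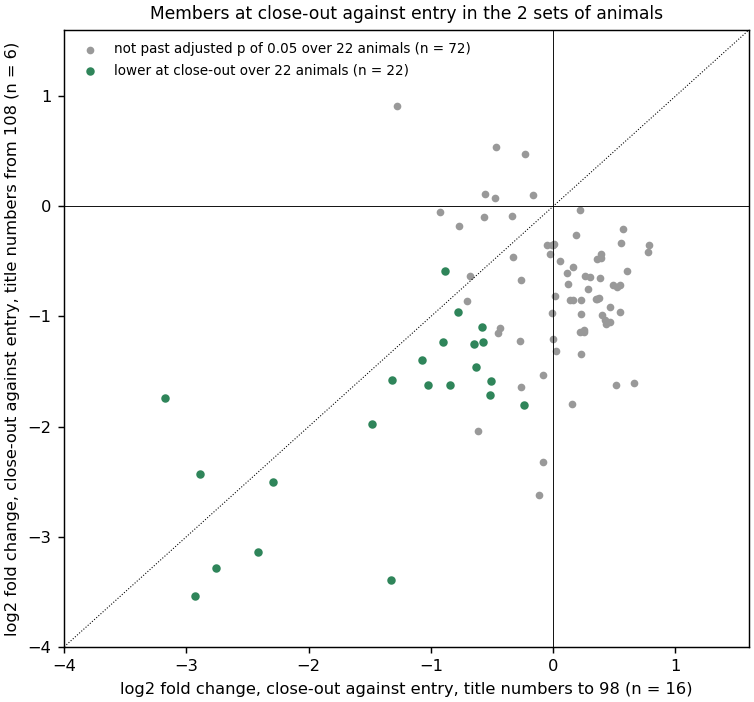
Log2 fold change of each member at close-out against entry within the 16 animals with title numbers up to 98 (x axis) and within the 6 with higher numbers (y axis). The 22 members called lower over all 22 animals (green) lie below 0 in both sets, and 61 of the other 72 (grey) lie below the dotted line of equal change.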

How the data were processed

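The authors deposited a table of whole-number counts for Ensembl genes with a column for each library and no normalization. TopHat2, HTSeq and the build UMD3.1 are named per the submitters' processing notes. Tool versions, annotation and strand setting: not given in the sources used here. Hence reads from near-identical or overlapping antisense genes cannot be told apart. Columns matching no sample numbered 0.

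In R 4.3.3, genes were filtered with filterByExpr by stage and scaled by TMM over 72 libraries (edgeR 4.0.16). Log2 CPM used a prior count of 2. Animals 9 and 12 were then left out. Close-out against entry was tested by edgeR's quasi-likelihood test on 66 libraries, with the animal as a block (the labels give the animal), with Benjamini-Hochberg adjustment over 12655 genes. SE was taken as |log2 change| / sqrt(F). The fits were also run on simulated counts with no built-in differences between animals and no correlation between genes. These data hold both, so that run does not bear on the values given here. Alternatives used DESeq2 1.42.0 and limma-voom (limma 3.58.1).

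Members and lists were chosen with earlier results of these data known. By the rule for unnamed genes, the 2 highest members are given by identifier, and 2 more were added after their values were seen. Of 25 gene and marker lists, 0 could be matched, so cell type markers were not computed. With the animal as a block, p-values rest on how far the differences between stages vary from animal to animal, over all stages including pulled.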

Additional observations from a re-analysis of the deposited data

Results flagged for a closer look

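Animal 5 stood apart at entry among the 6 animals with the higher title numbers. Its average over the 94 members was 7.02 log2 CPM, and its gap to the next animal was 0.719 of the range of the 6, above the 95% critical value of Dixon's ratio for 6 samples. The entry level of ENSBTAG00000046158 in the same animal was 7.81, with a ratio of 0.748. Both values come from 1 library, 9 such checks were made, and chance passes about 1 in 20 of them. Without animal 5 the rule gave 110 members, of which 92 were among the 94.

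The change from entry to close-out differed between the sets of title numbers in 26 of the 94 members (27.7%) by the edgeR test of the difference, a smaller share than the 66.1% of all genes. The sets were seen in these same entry libraries, the test was not repeated without animal 5, and the cause was not tested.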

How the results depend on the processing

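The count of 22 members lower at close-out than at entry ran from 17 to 31 over the 12 alternatives other than leaving out 1 animal, within 1.5 times of the value given, and from 20 to 23 without each animal in turn. The 31 came with no replicate block, where 21 of the 22 were called again. For members higher at close-out the value given is 0. It was 1 with library totals only and 1 with DESeq2, 10 within the 16 animals with title numbers up to 98, and 0 to 2 without each animal in turn (1 without animal 1, 2 without each of animals 2, 3, 5 and 6) and 0 in the other alternatives. The 26 members that differed between the sets became 10 with library totals only, and 25 to 28 otherwise. ENSBTAG00000022715 passed with no replicate block, at a log2 fold change of -1.86 (adjusted p = 0.0146). ENSBTAG00000046158 missed the threshold with no low-count filter, with all 24 animals, at an adjusted p of 0.01 and within the 6 animals, and also in 12 of the 22 fits without 1 animal. The adjusted p in those fits without 1 animal ran from 0.0271 to 0.0882. No log2 fold change of the 4 named genes reversed in any alternative run.

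The rule itself gave 62 members with library totals only (all among the 94) and 305 within the 6 animals (46 shared), and 80 to 128 in the other alternatives, of which 79 or more were shared. Without animal 17 there were 113 and without animal 19 there were 80. Filtering and scaling on the 66 libraries alone, added after seeing the data, gave 87, all among the 94. The lowest count of a member in a single library ran down to 0, with a median of 74.5 over the 94 members. Whether depth limits the weak members was not tested. No library was left out for depth.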
